A study of Mus musculus with 8 samples.

Results

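CD44+ CD4+ T cells from mice without STAT6 were set directly against the same cells from mice without T-bet. The groups were taken from the genotype in each sample's label, which put 4 of the 8 libraries of the series in the comparison, 2 from STAT6-/- and 2 from T-bet-/- mice. CD44 marks helper T cells that have met antigen, and these were sorted from the lymph nodes that drain the skin of BALB/cAJcl mice. All cells, whatever their genotype, were treated for 2 h with PMA and ionomycin, which bypass the T cell receptor and release the cytokines a cell is ready to make, and total RNA was sequenced. WT and T-bet-/- STAT6-/- cells, with 2 libraries each, are given here as levels beside the comparison. The labels give each deletion as a genotype and name no promoter or Cre. Whether both libraries of 1 genotype were made from different mice is not stated, so the p-values speak of the spread among these samples alone, and that spread may be technical.

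Helper T cells take on different effector programmes. T-bet, encoded by Tbx21, is the transcription factor that directs the Th1 programme, with interferon-gamma as its main cytokine and CXCR3 as its homing receptor. STAT6 is the transcription factor that carries the signals of IL-4 and IL-13 and induces GATA3, the regulator of the Th2 programme, whose cytokines IL-4, IL-5 and IL-13 act on B cells, eosinophils and epithelia. The 2 single mutants thus each lack a main regulator of one programme and keep the gene of the other.

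Levels are in FPKM, in which the fragments of a gene are divided by the length of its transcript and by the size of the library, so that genes of different length can be compared. Differences are STAT6-/- minus T-bet-/- on log2(FPKM + 1), with the standard error of the fit; a positive value means more RNA in STAT6-/- cells, and the added 1 understates the change of low genes. Of 10281 genes tested, 1262 (12.3%) were higher in STAT6-/- cells and 1537 (14.9%) were lower, by limma with an adjusted p under 0.05. The calls were 27.2% of all genes, and the median size of a called difference was 0.37. Counts of the gene lists below are to be read beside the shares of all genes, 12.3% higher and 14.9% lower. A difference of at least 2-fold was found for 140 of the higher and 47 of the lower genes, and one of at least 4-fold for 18 and 3. The counts moved with the number of libraries: without STAT6-/- replicate 1 the test called 787 higher and 869 lower genes, without STAT6-/- replicate 2 836 and 814, without T-bet-/- replicate 1 822 and 785, and without T-bet-/- replicate 2 712 and 749. Counts with 1 library left out are given below in that order where they differ by more than 1.5 times.

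**Figure D1:**
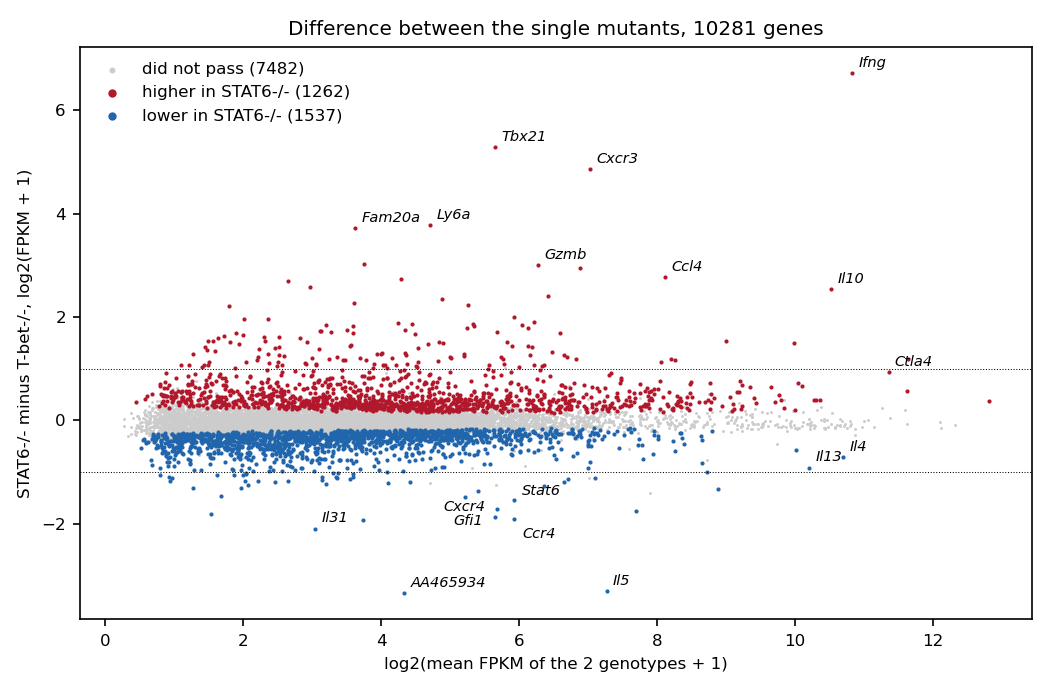
Each point is 1 of 10281 genes, with its level (log2 of the mean FPKM of the 2 genotypes plus 1) on the x axis and the difference STAT6-/- minus T-bet-/- on the y axis. Red points (1262) passed as higher and blue points (1537) as lower in STAT6-/- cells, grey points did not pass, dotted lines mark 2-fold, and Ifng at 6.72 and Il5 at -3.31 stand near the 2 ends.

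The deleted genes were read first. Tbx21 (chr11:97098007-97115331, mm10) stood at 101.9 and 92.0 FPKM in the STAT6-/- libraries and at 1.44 and 1.53 in the T-bet-/- libraries, against a WT mean of 31.2. Stat6 (chr10:127642955-127660987) stood at 31.6 and 29.0 FPKM in the STAT6-/- and at 88.8 and 89.8 in the T-bet-/- libraries, the latter close to the WT mean of 90.4. Stat6 RNA in STAT6-/- libraries was 0.34 of the T-bet-/- level; which part of the gene the allele lacks is not stated in the labels, the values cover all annotated exons, and Nab2 overlaps the gene. The deletions therefore enter both differences, 5.30 ± 0.08 for Tbx21 and -1.53 ± 0.06 for Stat6. Tbx21 in the STAT6-/- libraries also stood above the WT mean, so its difference is larger than the loss in T-bet-/- libraries alone. The libraries matched their genotype labels at both genes.

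Defining T cell genes were present in all 4 libraries. Cd4 read 127 and 128 FPKM in STAT6-/- and 122 and 114 in T-bet-/- cells (difference 0.11, adjusted p = 0.407). Of 14 T cell identity genes 8 were higher and 2 lower in STAT6-/- cells, with a median of 0.30, Thy1 at 0.77 being the most different and Cd44, the sorted marker, at -0.30; with 1 library left out none was lower. The summed level of the identity list was 5013 and 4945 FPKM in STAT6-/- and 4046 and 3933 in T-bet-/- libraries. Markers of other cells were summed in the same way. For 6 tested B cell markers the sum was 187.1 and 81.5 FPKM in STAT6-/- and 65.6 and 62.6 in T-bet-/- libraries. STAT6-/- replicate 1 was the high one, with Cd74, the invariant chain of MHC class II, at 104.6 against 45.5 FPKM in replicate 2. In the fit 2 of 6 B cell markers passed as higher, 0 without STAT6-/- replicate 1 and 6 without replicate 2. All 5 tested myeloid markers were higher in STAT6-/- cells, from Ctss at 0.24 to Lyz2, lysozyme, at 1.84, with a summed level of 146.1 and 144.6 against 106.9 and 100.5 FPKM, and 3 passed with any 1 library left out. Only 6 of the 17 listed myeloid markers had a line in the table, which holds genes above 0.1 FPKM in all 8 libraries. Kit, the stem cell factor receptor found on mast cells, passed at 1.87 while Hdc, the histamine-forming enzyme of mast cells, did not (-0.20, adjusted p = 0.124). Among keratinocyte markers 2 of 3 were higher, the endothelial gene Pecam1 was lower at -0.33, and 0 of 2 erythroid, 0 of 1 CD8 and 0 of 4 Y-linked genes passed; of 2 NK markers 1, Fcer1g, was lower. The part of these other cells in the results below was not tested. In bulk RNA, fewer cells of a kind and less RNA per cell cannot be told apart.

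Most Th1 genes were higher in STAT6-/- than in T-bet-/- cells, by differences that ranged from small to very large. Of 18 tested members 15 were higher and 1 lower, with a median difference of 0.80 against -0.025 over all genes tested. The 15 include Tbx21, which is deleted in the T-bet-/- cells. Ifng (chr10:118441046-118445894), the cytokine that arms macrophages, read 3516 and 3704 FPKM in the STAT6-/- libraries (mean 3610 ± 133, SD, n = 2) and 32.4 and 33.9 in the T-bet-/- libraries (33.1 ± 1.05), with a WT mean of 1139. The STAT6-/- libraries thus stood 109-fold above the T-bet-/- ones and also above WT, and the difference of 6.72 ± 0.09 was the largest of all genes tested (adjusted p = 1.57e-09). Cxcr3 (chrX:101731535-101734147), which guides T cells to interferon-induced chemokines, read 254 and 251 FPKM against 7.13 and 8.24, a 32.8-fold difference (4.87 ± 0.08, adjusted p = 4.38e-09). The WT mean for Cxcr3, 118 FPKM, lay between the mutants.

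Beyond these, the Th1 members fell into large and small differences. Havcr2, the inhibitory receptor TIM-3, stood at 116 and 117 against 30.3 and 30.1 FPKM (1.91 ± 0.07). Runx3, a partner of T-bet, was higher by 0.83, and Il18rap, a chain of the IL-18 receptor, by 0.70. Fasl, the death ligand, was the lower one (-0.36, adjusted p = 0.00141), and Lta did not pass (0.14, adjusted p = 0.169). Leaving out any 1 library of the 2 genotypes left 11 to 13 of the 18 called higher.

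**Figure D2:**
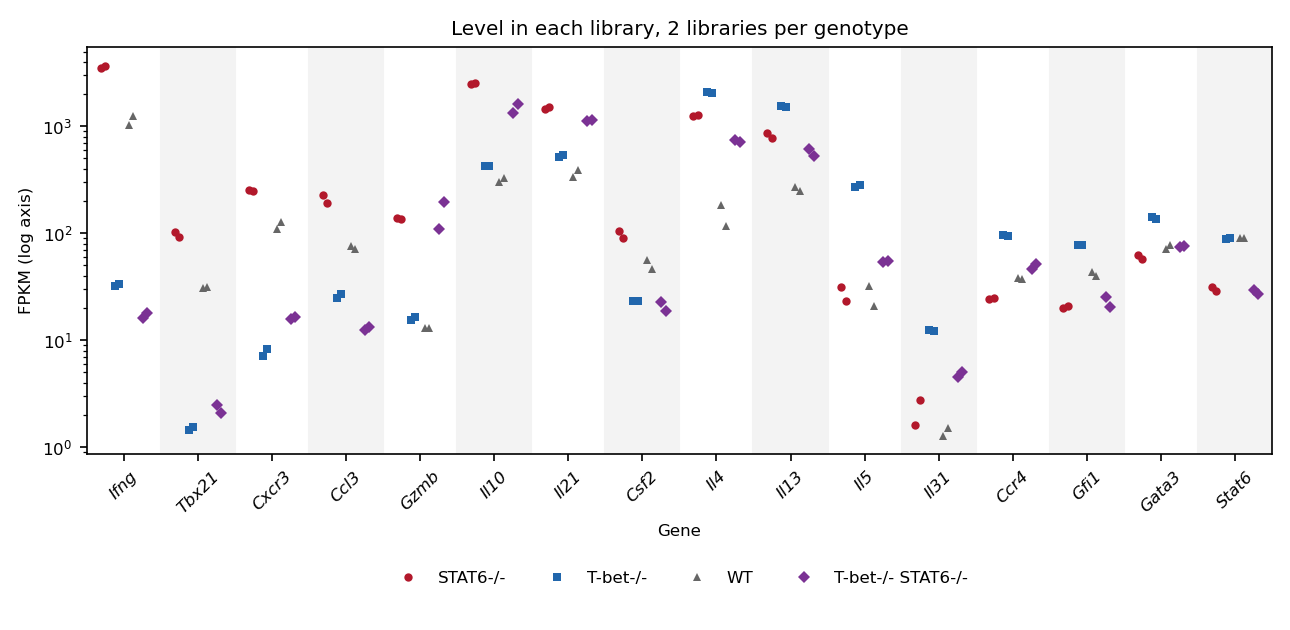
FPKM on a log axis for 16 genes, 1 point per library, 2 libraries for each of STAT6-/-, T-bet-/-, WT and T-bet-/- STAT6-/- cells. Ifng, Tbx21 and Cxcr3 separate the single mutants most, Il10 and Gzmb are high in both genotypes without STAT6, and Il4 and Il13 lie above WT in all 3 mutants.

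Type 2 genes moved the other way. Of 17 tested members, 13 were lower in STAT6-/- cells, 1 was higher and 3 did not pass, with a median of -0.91. Il5 (chr11:53720794-53725103), the eosinophil growth factor, read 31.7 and 23.4 FPKM in STAT6-/- libraries (27.6 ± 5.89, SD, n = 2) and 272 and 286 in T-bet-/- libraries (279 ± 9.55). The T-bet-/- cells stood 10.1-fold higher (difference -3.31 ± 0.18, adjusted p = 5.00e-06), while the STAT6-/- mean was within the spread of WT, 26.5 ± 7.83. Il31 (chr5:123480152-123482623), the itch cytokine, read 1.62 and 2.75 against 12.6 and 12.2 FPKM (-2.09 ± 0.15, adjusted p = 2.20e-05). Its level was low throughout.

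The main Th2 cytokines differed much less than Il5. Il4 read 1238 and 1275 FPKM in STAT6-/- and 2079 and 2048 in T-bet-/- cells (-0.72 ± 0.16, adjusted p = 0.0120). Il13 read 865 and 775 against 1556 and 1522 FPKM (-0.91 ± 0.09, adjusted p = 1.61e-04). Both genes were thus above their WT means, 150 FPKM for Il4 and 259 for Il13, in either single mutant. Il4 and Il13 were 1.64-fold and 1.88-fold higher without T-bet than without STAT6. The call for Il4 was lost whenever 1 of the 4 libraries was left out, with an adjusted p of 0.0567 to 0.0672.

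Regulators of the programme followed Il5 in direction. Gata3, the Th2 master regulator, read 62.3 and 57.9 FPKM in STAT6-/- and 142 and 136 in T-bet-/- libraries (-1.19 ± 0.06, adjusted p = 3.60e-06). Gfi1, a repressor that supports Th2 cell growth, read 20.1 and 21.0 against 77.2 and 78.1 FPKM (-1.87 ± 0.09). Pparg, a nuclear receptor of Th2 cells, was near the table's floor at 0.24 and 0.11 against 1.41 and 1.93 FPKM (-1.18). For Gata3 the STAT6-/- libraries lay below the WT mean of 75.0 and the T-bet-/- libraries above it. Maf, an activator of Il4 that also acts on Il10 and Il21, was the 1 type 2 member that was higher in STAT6-/- cells, at 106 and 104 against 39.0 and 37.8 FPKM (1.42 ± 0.08). Il3 (0.68, adjusted p = 0.0557), Areg (0.06) and Epas1 (0.05) did not pass.

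Of 15 IL-4 and STAT6 response genes, 7 were lower and 1, Nfil3, was higher, with a median of -0.16. The list shares Gata3, Gfi1, Ccr8 and Il1rl1, all among the lower ones, and Epas1 with the type 2 list. These calls are therefore counted in both lists. Il4ra, the receptor chain through which STAT6 is activated, did not pass, at 45.6 and 41.5 against 44.96 and 43.5 FPKM (-0.02, adjusted p = 0.845). Socs1, a feedback inhibitor of cytokine signals, did not pass either (0.30, adjusted p = 0.0594). Ecm1, which aids the exit of Th2 cells from lymph nodes, was lower at -0.67.

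Il10 and Il21 rose together in the cells without STAT6. Of 14 genes of the IL-10 and IL-21 list 9 were higher and 0 lower (median 0.41), and 9 to 10 were higher when any 1 library was left out. Il10 (chr1:131019845-131024970), an anti-inflammatory cytokine, read 2462 and 2546 FPKM against 430 and 428, 5.83-fold apart (2.54 ± 0.09, adjusted p = 3.77e-07). Il21, a cytokine that helps B cells, read 1467 and 1516 against 521 and 534 FPKM (1.498 ± 0.07). For both genes the T-bet-/- libraries stood above the WT mean, which was 315 for Il10 and 361 for Il21, and the STAT6-/- libraries higher still. Besides Maf, the regulators Prdm1 (encoding Blimp-1, 51.0 and 50.8 against 21.0 in both), Batf (0.81) and Bhlhe40 (0.40) were higher. Irf4, their common partner, did not pass at 688 and 670 against 651 and 650 FPKM (0.06, adjusted p = 0.473).

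Most cytotoxic genes were also higher in STAT6-/- than in T-bet-/- cells, 10 of 14 with 1 lower (median 0.41). The higher ones were 71.4% of the list against 12.3% of all genes. Gzmb (chr14:56258836-56262334), granzyme B, the protease that triggers death of target cells, read 138 and 135 FPKM in STAT6-/- and 15.6 and 16.5 in T-bet-/- libraries (8.51-fold, 3.01 ± 0.21, adjusted p = 2.16e-05). The T-bet-/- libraries lay near the WT mean of 13.0, so the STAT6-/- ones stood apart from both. Nkg7, a granule protein, read 17.2 and 15.6 against 6.05 and 4.65 FPKM (1.46), and Gzma and Prf1, the pore former perforin, stayed under 3 FPKM in all 4 libraries with differences of 0.87 and 0.67. The WT means of Nkg7 (21.5 FPKM) and Prf1 (1.33) lay above both single mutants, and that of Gzma (0.25) below both. Srgn, the proteoglycan of secretory granules, had one of the highest levels in the table, 7970 and 8177 against 6310 and 6186 FPKM (0.37, adjusted p = 0.00673). That difference became 0 after quantile normalization. Because this gives genes of equal rank the same value in every library, it cannot show a difference in a gene that keeps its rank. Over the alternatives that kept all libraries of the comparison, 6 to 11 members of the list passed as higher. These include a filter at 5 FPKM, under which Gzma, Prf1, Klrk1 and Serpinb9 were not tested and so could not pass.

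Most genes induced by interferon were higher in STAT6-/- cells. Of 30 tested members 21 were higher and 0 lower (70.0% against 12.3% of all genes), with a median of 0.77, and 17 to 19 were higher with 1 library left out. The 11 interferon-inducible GTPases, which attack the vacuoles of intracellular pathogens, were all higher, by 0.89 to 3.03 with a median of 1.41. The other 19 members had a median of 0.36 and 10 passed; this division was made after the values were seen. Iigp1 read 22.0 and 23.9 FPKM against 1.72 and 2.17 (3.03 ± 0.11, adjusted p = 3.77e-07). Irgm1 read 50.9 and 46.1 against 8.06 and 9.35 FPKM (2.35), and Gbp5, a guanylate-binding protein, 65.2 and 60.1 against 17.1 and 16.9 (1.82). Irf1, an interferon-induced transcription factor, stood at 95.01 and 77.9 against 31.6 and 30.7 FPKM (1.44).

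Of the other 19 members 9 did not pass. Ifit1 read 0.61 and 0.59 against 0.43 and 0.37 FPKM (0.20, adjusted p = 0.103), Ifit2 differed by 0.05, Oas3 by 0.09 and Irf7 by 0.42 (adjusted p = 0.0609). Isg15 (0.36, adjusted p = 0.00617), Bst2, the virion tether tetherin (0.36, adjusted p = 0.0499), and Ifi35 (0.29) passed with small differences, and Stat2, part of the type I interferon signalling complex, with 0.66. In the receptors, Ifngr2, a chain of the interferon-gamma receptor, was lower in STAT6-/- cells at 2.60 and 2.38 against 5.79 and 5.94 FPKM (-0.98), and Ifngr1, the other chain, did not pass (0.14).

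**Figure D3:**
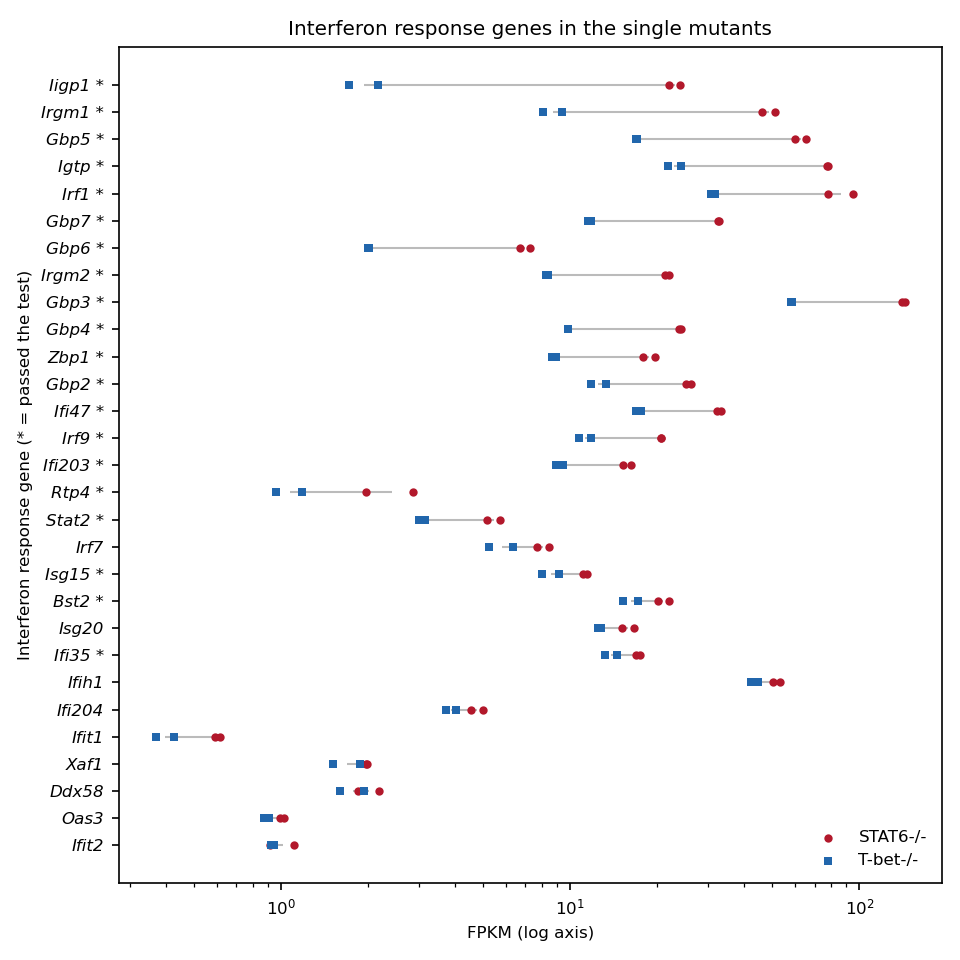
FPKM on a log axis for tested members of the interferon response list, sorted by the difference, with 2 STAT6-/- libraries (red circles) and 2 T-bet-/- libraries (blue squares) joined at their means. Names with an asterisk passed the test; Iigp1 at the top differs by 3.03 and Ifit2 at the bottom by 0.05.

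Promoters of these genes are shown because interferon response motifs were searched in them. The RefSeq promoter table (assembly GRCm38.p6, from which mm10 derives) held 8197 of the 10281 tested genes. The 250 bases before each start were read on both strands for ISRE letters, GAAA repeated after 2 bases of any kind, the core of the interferon-stimulated response element, and for GAS letters, TTC and GAA with 3 bases between, the gamma-activated site bound by STAT dimers. These 2 motifs were added after the interferon genes had been seen. A gene with several annotated starts was counted once, if the bases before any of them held a match. Counts of promoters below are thus counts of genes, and more starts give more room for a match. Segments of 44 bases follow, with the match in capitals on the strand of the gene (a match on the other strand reads TTTC for GAAA, and below TCACACC for GGTGTGA), all from genes at least 2-fold higher in STAT6-/- cells.
Gbp7 ISRE, chr3:142530266-142530309, plus strand: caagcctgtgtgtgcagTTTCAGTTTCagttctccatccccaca
Gbp5 ISRE, chr3:142496752-142496795, plus strand: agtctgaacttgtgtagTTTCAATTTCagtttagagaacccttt
Igtp ISRE, chr11:58199505-58199548, plus strand: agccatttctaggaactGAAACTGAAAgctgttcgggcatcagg
Irgm2 ISRE, chr11:58214896-58214939, plus strand: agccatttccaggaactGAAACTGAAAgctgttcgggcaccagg
Irgm1 ISRE, chr11:48871424-48871467, minus strand: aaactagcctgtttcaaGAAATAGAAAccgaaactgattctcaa
Tgtp1 ISRE, chr11:48992297-48992340, minus strand: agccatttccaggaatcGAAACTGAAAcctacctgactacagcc
Irf1 GAS, chr11:53769907-53769950, plus strand: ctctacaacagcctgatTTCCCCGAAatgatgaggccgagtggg
Icam1 GAS, chr9:21015881-21015924, plus strand: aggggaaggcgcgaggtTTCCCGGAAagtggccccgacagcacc
Socs3 GAS, chr11:117969494-117969537, minus strand: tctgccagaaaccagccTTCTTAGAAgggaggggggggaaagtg
Serpina3g GAS, chr12:104236097-104236140, plus strand: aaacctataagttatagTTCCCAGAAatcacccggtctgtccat
Ifng GAS, chr10:118440796-118440839, plus strand: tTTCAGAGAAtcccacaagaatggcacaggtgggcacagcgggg

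ISRE letters were present in 257 of all 8197 promoters (3.14%), in 14 of the 99 promoters of genes at least 2-fold higher (14.1%) and in 2 of 35 of those at least 2-fold lower (5.71%). Among the interferon response genes 13 of 23 held it (56.5%), including Ifit1 and Oas3, which did not pass. Over all called genes the ISRE share was 6.37% for the higher and 3.03% for the lower ones. GAS letters were present in 601 promoters (7.33%), in 19 of 99 of the higher genes (19.2%), in 0 of 35 of the lower genes and in 8 of 23 interferon response genes (34.8%). Over all called genes the GAS share was 9.46% for the higher and 6.72% for the lower ones, so that the shares of both motifs lay nearer to that of all promoters than among genes at least 2-fold apart. Matches to the 2 motifs overlapped in 9 genes in all. Igtp, Irgm2 and Tgtp1 carry GAS letters just before the ISRE letters, in lower case in their segments above. These GTPase genes are related copies, so their promoters are not independent examples. Matches are letters in a window, not binding measurements.

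The motifs of the 2 deleted factors were searched in the same windows. TTC and GAA with 4 bases between, the spacing that STAT6 prefers, stood in 462 of 8197 promoters (5.64%), in 5 of 99 of the higher (5.05%) and 2 of 35 of the lower genes (5.71%). GGTGTGA, the core of the T-box site, stood in 274 (3.34%), in 6 of 99 of the higher (6.06%) and 6 of 35 of the lower genes (17.1%). Over all called genes the T-box share was 3.29% for the higher and 3.11% for the lower ones, and the STAT6 share 5.18% and 6.22%. Among the 23 interferon response promoters, 5 held the STAT6 letters (21.7%) and 3 the T-box letters (13.0%), so that all 4 motifs were more frequent there than over all promoters. Pairs that include the STAT6 or the T-box letters overlapped in 0 genes, except STAT6 with ISRE letters in 6. Segments with the T-box letters are shown for 2 higher genes, Nkg7 and Xcl1, and for 4 lower ones.
Nkg7 T-box, chr7:43437094-43437137, plus strand: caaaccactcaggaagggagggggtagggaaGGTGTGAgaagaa
Xcl1 T-box, chr1:164935685-164935728, minus strand: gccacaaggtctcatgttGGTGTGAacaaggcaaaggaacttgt
Itga4 T-box, chr2:79255243-79255286, plus strand: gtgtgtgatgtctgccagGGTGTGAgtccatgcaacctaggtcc
P2rx7 T-box, chr5:122650224-122650267, plus strand: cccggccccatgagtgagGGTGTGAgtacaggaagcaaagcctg
Pparg T-box, chr6:115362099-115362142, plus strand: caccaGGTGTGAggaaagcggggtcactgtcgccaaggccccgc
Trat1 T-box, chr16:48772268-48772311, minus strand: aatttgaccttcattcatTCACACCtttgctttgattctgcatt

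Trat1, an adaptor of the T cell receptor, read 46.3 and 48.6 FPKM in STAT6-/- and 114 and 116 in T-bet-/- libraries (-1.26). Itga4, the alpha-4 integrin chain, read 1.62 and 1.36 against 4.77 and 5.01 FPKM (-1.24). Both were thus more than 2-fold lower in the cells that keep T-bet. Their libraries did not overlap. That held for all 2799 called genes, but also for genes that did not pass, such as Il2 and Irf4, so it is no further support for a call. In the 250 bases before the starts of Il5, Gzmb, Cxcr3 and Il31, none of the 4 letter patterns was found.

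Chemokines and their receptors separated the genotypes in both directions. Of 10 chemokine ligands, 7 were higher and 1 was lower in STAT6-/- cells (median 1.03). Ccl3, which attracts macrophages and T cells, read 226 and 190 FPKM against 25.04 and 26.9 (2.95 ± 0.08), and its neighbour Ccl4 503 and 460 against 72.7 and 66.5 (2.77 ± 0.06). Their annotated spans overlap and the strandedness of the reads is not given, so reads of one can be counted for the other. Xcl1, which attracts cross-presenting dendritic cells, read 74.4 and 50.3 against 17.0 and 15.01 FPKM (1.87), and Ccl1, the ligand of CCR8, 752 and 776 against 265 and 258 (1.54). Cxcl2, a neutrophil attractant, was the lower one (-0.78).

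Of 19 chemokine and lipid receptors 6 were higher and 7 lower (31.6% and 36.8%, median -0.05). Ccr4 (chr9:114490316-114505476), which guides T cells to skin, read 24.4 and 24.6 FPKM in STAT6-/- libraries and 95.5 and 94.0 in T-bet-/- libraries (-1.91 ± 0.06, adjusted p = 2.18e-07). Cxcr4, the receptor for CXCL12, read 22.8 and 23.2 against 80.8 and 75.2 FPKM (-1.72), all below its WT mean of 102. Cysltr1, a leukotriene receptor, was lower at 3.97 and 5.06 against 11.3 and 11.1 FPKM (-1.16). Besides Cxcr3, the inflammatory receptors Ccr2 (0.72) and Ccr3 (0.75) were higher. The genotypes thus carried different sets of homing receptor RNA, CXCR3 on one side and CCR4 and CXCR4 on the other.

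Inhibitory receptors were mixed as a group, with 7 of 14 higher and 5 lower (median 0.08). Lag3 stood at 133 and 118 against 52.2 and 47.4 FPKM (1.32), Tigit at 425 and 426 against 192 and 183 (1.18) and Ctla4 at 3405 and 3476 against 1786 and 1810 (0.94). Entpd1, the ectoenzyme CD39, which starts the breakdown of extracellular ATP, was higher (1.20), and Nt5e, CD73, which completes it, was lower at 18.6 and 21.7 against 38.0 and 38.7 FPKM (-0.90). Cd160 was lower at -0.63. Leaving out 1 library gave 4, 4, 4 and 3 lower members.

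Genes of regulatory T cells were higher in 11 of 15 cases and lower in 3 (median 0.40). Foxp3, the lineage factor, differed little, at 120 and 113 against 95.6 and 91.8 FPKM (0.31, adjusted p = 0.0152). Socs2 (0.98) and Itgae, the CD103 integrin chain (0.94), differed more. Lrrc32, which presents latent TGF-beta (-0.81), Nrp1 (-0.56) and Ikzf2, the factor Helios (-0.52), were lower. These 3 of 15 stand beside 14.9% lower of all genes, and the 11 of 15 beside 12.3% higher. The list thus departed from all genes mainly on the higher side.

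Of 15 Th17 genes, 7 were higher and 4 were lower (46.7% and 26.7%, median 0.08). The lower count was 1, 3, 1 and 2 without 1 library. Csf2, the cytokine GM-CSF, read 104 and 89.4 FPKM against 23.4 and 23.5 (2.00 ± 0.12), and Il22, an epithelial cytokine, 32.5 and 33.8 against 9.64 and 9.73 (1.68). Il17a did not pass (-0.16, adjusted p = 0.222). Il17f was modestly higher (0.49) and Ccr6, the homing receptor of Th17 cells, lower (-0.63).

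Follicular helper genes showed 3 higher and 3 lower of 12 (median 0.11). Beside Il21, Cxcr5, the follicle-homing receptor, was higher at 0.65 and Pdcd1 at 0.57, whereas Bcl6, the lineage factor, was lower at -0.21 (adjusted p = 0.0360). Of 16 naive and central memory genes 5 were lower and 2 higher (31.2% and 12.5%, median -0.14), with Klf3 at -0.79. With 1 library left out, 5, 2, 3 and 2 of these were lower and 1, 2, 1 and 1 higher, and 2, 2, 2 and 1 follicular helper genes were lower.

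Signalling genes moved in smaller steps. In the STAT and SOCS list 7 of 20 were higher and 4 lower (median 0.07), with Socs3 at 157 and 131 against 61.6 and 59.5 FPKM (1.23) and Stat3 at 225 and 215 against 133 and 130 (0.73). The 4 lower include Stat6, which is deleted in the STAT6-/- cells. Socs3 inhibits and Stat3 transmits signals of the IL-6 and IL-21 families. Of 23 cytokine receptors 9 were higher and 5 lower (39.1% and 21.7%, median 0.14). Il17rb, the IL-25 receptor, was the most different at -1.11, and Il9r was next among the lower at -0.73 after Ifngr2. Il17rb was near the floor of 0.1 FPKM, at 0.19 and 0.30 against 1.44 and 1.94 FPKM. In the IL-2 and STAT5 list of 17, 6 were higher and 2 lower (35.3% and 11.8%, median 0.10). Il2 itself did not pass, at 4141 and 4306 against 4682 and 4598 FPKM (-0.14, adjusted p = 0.332). With 1 library left out, 5, 8, 6 and 5 receptors were higher and 3, 4, 4 and 3 lower, while 3, 3, 3 and 2 STAT and SOCS genes and 2, 1, 1 and 2 of the IL-2 and STAT5 list were lower.

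The TNF superfamily had 8 higher and 2 lower of 20 (median 0.13), with Cd70 at 2.37 and 2.48 against 0.40 and 0.42 FPKM (1.28). Tnf itself did not pass (0.17, adjusted p = 0.138). Adhesion genes had 7 higher and 8 lower of 21 (33.3% and 38.1%, median -0.06). Sema7a, a semaphorin that binds integrins, read 150 and 141 against 45.7 and 43.5 FPKM (1.69), and Icam1 92.7 and 73.6 against 29.1 and 27.4 (1.51). The lower ones were integrin chains, among them Itgb3 at -1.06 and Itga6 at -0.63, beside Itga4. Leaving out 1 library gave 5, 6, 5 and 5 lower adhesion genes.

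Cell cycle genes were lower in STAT6-/- cells in 14 of 32 cases, with 1, Cdk6, higher (43.8% and 3.12%, median -0.26). Mcm6, a subunit of the replication helicase, read 14.2 and 15.3 against 24.2 and 24.3 FPKM (-0.68), and Ccnb2, a mitotic cyclin, 3.04 and 3.69 against 6.09 and 5.46 (-0.64). The levels were low, with Top2a at 9.77 and 11.5 against 16.1 in both T-bet-/- libraries. Leaving out 1 library gave 5, 9, 6 and 7 lower members, STAT6-/- replicate 1 giving the fewest.

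Immediate early genes, induced by the PMA and ionomycin that all cells received, were divided, with 9 of 27 higher and 7 lower (33.3% and 25.9%, median -0.01). Junb read 1383 and 1227 against 837 and 745 FPKM (0.72) and Nr4a2 289 and 276 against 389 and 386 (-0.45), while Fos (0.10) and Cd69 (-0.06) did not pass. With 1 library left out, 5, 8, 5 and 5 were higher and 8, 4, 4 and 5 lower.

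Metabolic and protein folding genes differed little. In glycolysis 3 of 17 were higher and 2 lower (median -0.16), with Hk1, a hexokinase, at 46.9 and 41.6 against 18.7 and 18.3 FPKM (1.21). ER folding and secretion genes were higher in 8 of 19 and lower in 1 (median 0.16), none by more than 0.28, and 1, 1, 0 and 1 passed as higher with 1 library left out, with 0 lower. Sterol synthesis genes were lower in 5 of 20 and higher in 1 (median -0.11), and heat shock genes lower in 5 of 12 and higher in 0 (median -0.13), with Hspa8 at 847 and 814 against 1234 and 1250 FPKM (-0.58). With 1 library left out, the lower counts were 1, 0, 1 and 0 for glycolysis, 4, 3, 2 and 5 for sterol synthesis and 3 each for heat shock.

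**Figure D4:**
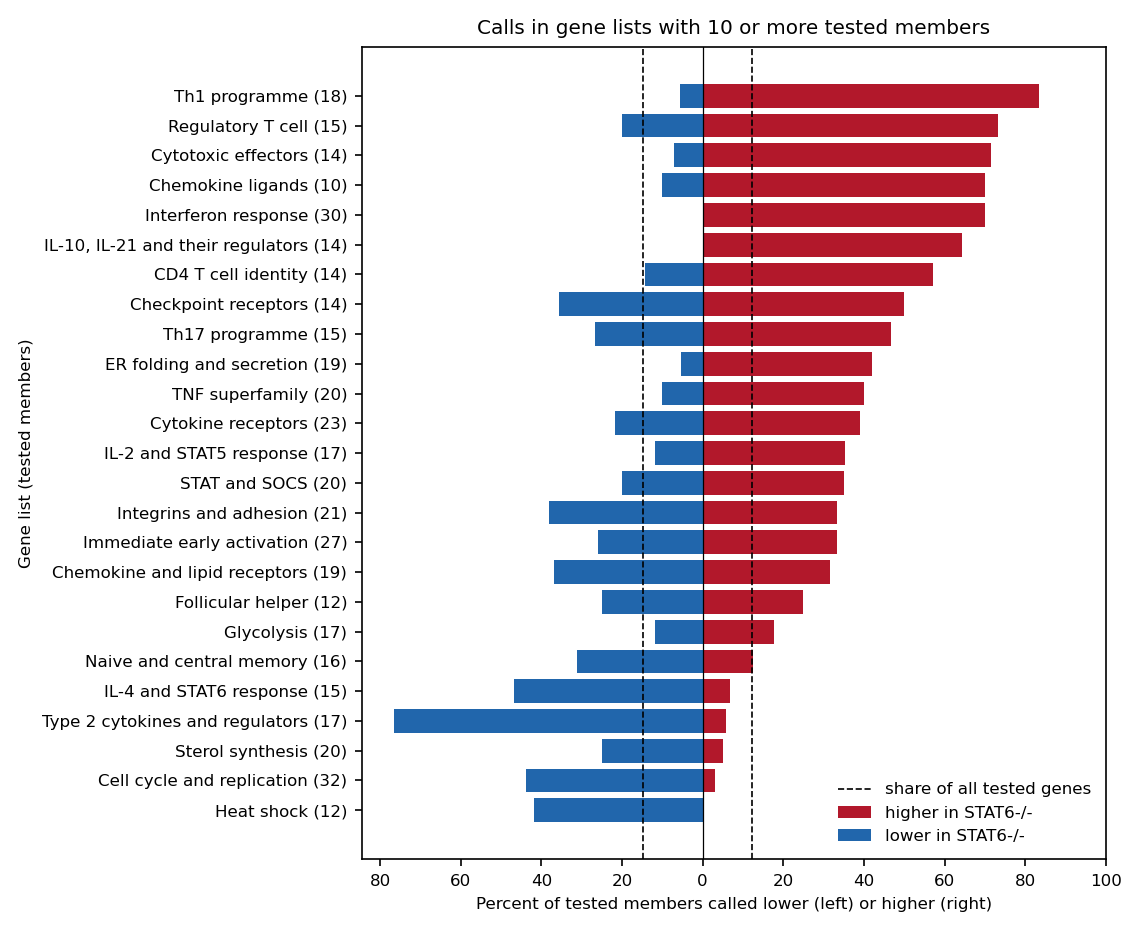
For each gene list with 10 or more tested members (number in brackets), the bars give the percent of members called higher (red, right) or lower (blue, left) in STAT6-/- cells. Dashed lines mark the 12.3% higher and 14.9% lower of all tested genes; the Th1 list has 83.3% higher and the type 2 list 76.5% lower.

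Some of the largest differences lay outside the lists. Fam20a (chr11:109669746-109723163), of a family of secretory pathway kinases, read 20.6 and 23.4 FPKM in STAT6-/- and 0.80 and 0.69 in T-bet-/- libraries (3.72 ± 0.11, adjusted p = 1.67e-07), with a WT mean of 0.15. Ly6a, the surface antigen Sca-1, read 42.1 and 53.6 against 2.63 and 2.45 FPKM (3.78 ± 0.24). Coro2a, an actin-binding coronin, read 10.6 and 9.32 against 0.69 and 0.68 FPKM (2.70). For Fam20a and Coro2a the T-bet-/- libraries stood above the WT mean, 0.12 FPKM for Coro2a, and the STAT6-/- libraries much higher. Serpina3f and Serpina3g, protease inhibitors of a cluster of near-identical copies among which reads can be divided, were higher by 2.73 and 2.40, and Slfn8, a schlafen gene, by 2.58. A130040M12Rik, which is not matched to the RefSeq table, read 4324 and 4569 against 1914 and 1972 FPKM (1.19) and gave the largest difference in mean FPKM after Ifng.

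On the lower side, AA465934 (chr11:83291699-83294637) had the largest negative difference of all called genes. It read 2.86 and 2.41 FPKM in STAT6-/- and 36.6 and 34.9 in T-bet-/- libraries (-3.34 ± 0.09, adjusted p = 1.37e-07), with 2.90 in WT. The T-bet-/- libraries thus stood apart from the other genotypes; the annotated spans of AI450353 and Snord7 overlap this gene. Sfi1, a centrosome gene whose span overlaps several others, read 4.59 and 4.57 against 20.4 and 19.9 FPKM (-1.92), again with T-bet-/- above the WT mean of 6.90. Inhba, the activin A subunit, read 17.3 and 19.96 against 53.7 and 53.4 (-1.48), and Plk2, a stress-responsive kinase, 22.2 and 23.3 against 59.4 and 60.8 (-1.36). Nrn1, neuritin, read 282 and 281 against 561 and 562 (-0.99), while Prrg4 (-1.22) and Itm2a, a membrane protein of T cells (-1.20), were lower as well.

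Small RNAs of host introns were less certain. Snord57, inside Nop56, read 83.9 and 83.4 against 492 and 164 FPKM (-1.75 ± 0.52, adjusted p = 0.0357). The 2 T-bet-/- libraries were far apart, and without T-bet-/- replicate 1 the difference was -0.96 with an adjusted p of 0.192. Mir3064, inside Ddx5, read 268 and 265 against 625 and 722 FPKM (-1.33, adjusted p = 0.0253), and its call was lost without any 1 of the 4 libraries (adjusted p 0.0706 to 0.116). Values of genes this short come from fragments of the host transcript as well.

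Many of the higher genes lay beside each other. Of 139 genes at least 2-fold higher with coordinates, 40 had another such gene within 100 kb on the same chromosome, against 4 of 47 for the lower ones. Of all 10197 tested genes with coordinates, 3.22% lay as close to a gene of the higher set and 1.13% to one of the lower set. The groups included the Gbp genes on chromosomes 3 and 5, the Serpina3 cluster, Ccl3 with Ccl4, Lyz1 with Lyz2, and Igtp with Irgm2. Some of these are similar copies, and a difference in mapping cannot be told apart from one in RNA for each alone. Around the deleted genes, 22 of 67 tested genes within 5 Mb of Stat6 were called (32.8%, 0 of them at least 2-fold), as were 42 of 123 within 5 Mb of Tbx21 (34.1%, 3 at least 2-fold), beside 27.2% of all genes.

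Cells without both factors were then placed between the single mutants, as a description. The position was 0 at the T-bet-/- mean and 1 at the STAT6-/- mean, on log2(FPKM + 1). Of the 140 genes at least 2-fold higher in STAT6-/- cells, 108 had the T-bet-/- STAT6-/- mean between the 2 single mutants, 15 beyond STAT6-/- and 17 beyond T-bet-/-, with a median position of 0.54. Of the 47 lower genes 30 were between, 13 beyond STAT6-/- and 4 beyond T-bet-/-, with a median of 0.73. Both sets were chosen for a wide gap between the single mutants, which favours a place between them. The share over all tested genes was not computed.

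Named genes fell along the whole range. Ifng at 16.9 ± 1.30 FPKM in T-bet-/- STAT6-/- cells (SD, n = 2) stood below the T-bet-/- mean (position -0.14), as did Ccl3 at 12.8 FPKM (-0.33) and Csf2 (-0.09). Cxcr3 (0.20) and Irgm1 (0.27) stood close to T-bet-/-. Il10 at 1485 ± 207 FPKM lay nearer STAT6-/- (0.70), and Gzmb at 153 ± 62.7 FPKM reached the STAT6-/- level of 136 ± 2.50 (1.03), its 2 libraries being widely spread. Kit at 59.8 FPKM exceeded STAT6-/- (1.44). Among the lower genes, Gfi1 (0.93), AA465934 (1.11) and Sfi1 (0.94) were at the STAT6-/- level, and Il5 at 54.3 ± 0.40 FPKM (0.71) and Ccr4 (0.49) were intermediate.

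**Figure D5:**
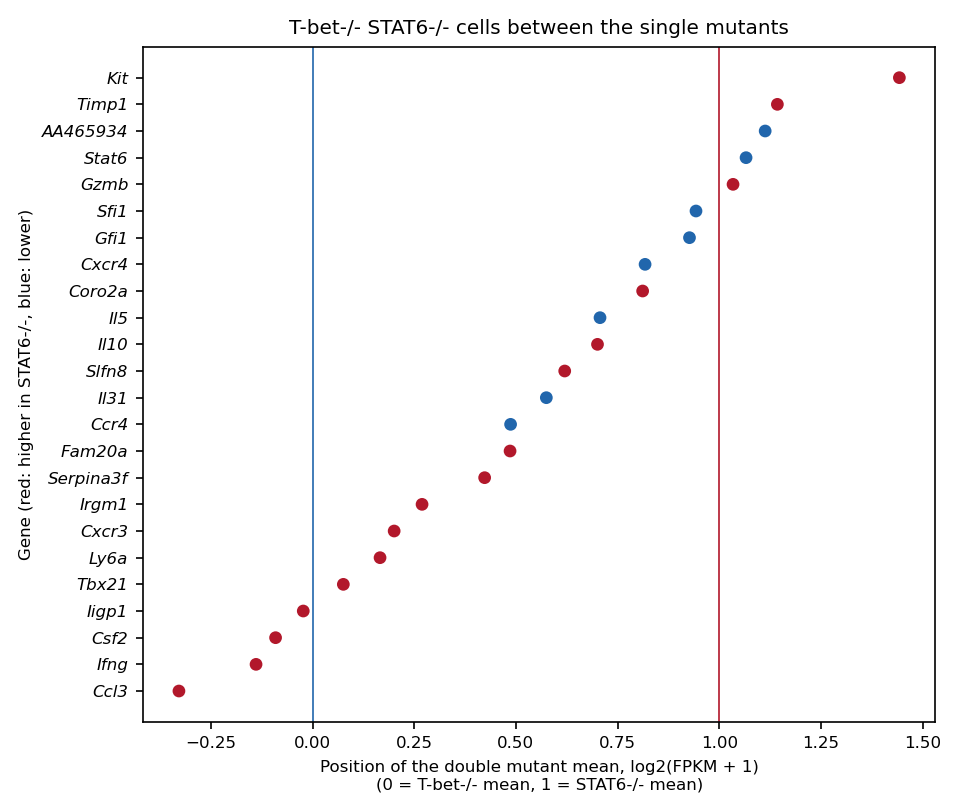
Position of the T-bet-/- STAT6-/- mean (n = 2 libraries) on a scale where 0 is the T-bet-/- mean and 1 the STAT6-/- mean of log2(FPKM + 1), for 24 genes. Red points are genes higher and blue points genes lower in STAT6-/- cells; Ccl3 at -0.33 and Kit at 1.44 are the extremes.

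WT cells gave a further reference. Of the 140 higher genes 66 had the WT mean between the single mutants, 59 below both and 15 above both. Of the 47 lower genes 29 had WT between, 14 above both and 4 below both. Fam20a, Il10 and Havcr2 are examples with WT lowest, and Cxcr4 and Itm2a of genes with WT highest. The class with WT between the mutants was the largest in either set, by 66 against 59 in the higher one. Because the genes were chosen for a wide gap between the single mutants, WT falls between them more readily, and nothing is concluded from these counts.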

How the data were processed

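RNA was sequenced in 8 libraries, 2 per genotype, placed by their genotype labels. The authors deposited 1 table of FPKM values, 1 column for each library. It was made with Cufflinks on mm10, per the submitters' processing notes, and its name gives RefSeq genes. For the aligner, strandedness and Cufflinks version: not given in the sources used here. All 11906 lines exceed 0.1 FPKM in all 8 libraries, so a gene silent in any library is absent and nothing is said of it. Of 43 repeated symbols the line with the highest mean was kept (65 lines set aside, 11841 symbols left); 17 date-like names were not named. Coordinates (10573 symbols matched directly, 1164 by an older name) and promoters are from RefSeq tables of GRCm38.

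Depth was read from the steps of 503 low genes (under 0.5 FPKM, tolerance 0.001 on the log2 scale): the libraries differed by at most 1.215-fold, at roughly 16900000 fragments in the reference library (from 10 genes). Only 77 of these genes fell on whole steps in all libraries, so no count test was run. Between replicates, genes of 16 to 64 FPKM had a log2 SD of 0.106 in STAT6-/- and 0.077 in T-bet-/- libraries. Correlations over genes were 0.997 to 0.998 within genotypes and 0.987 between the 2 single mutants.

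Genes with at least 1 FPKM in at least 2 of 8 libraries were tested: Stil (second highest value 1.0011) and Spint1 (1.0018) lay just inside, Pcx (0.9994) and Ttl (0.9988) just outside. Limma 3.58.1 (R 4.3.3) was fitted to log2(FPKM + 1) with 1 mean per genotype over all 8 libraries, 4 residual degrees of freedom and an intensity trend. Tests were two-sided with Benjamini-Hochberg adjustment over all tested genes, called under 0.05. The script was tested on simulated data. Python 3.11.15, pandas 2.3.3 and SciPy 1.17.1 made summaries.

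The members and the 34 gene lists (588 entries) were chosen with earlier results of these data known, so list counts and medians are descriptions. Genes named are the markers of the comparison with Stat6, the 15 largest called differences in each direction with non-overlapping libraries and at least 5 FPKM in the higher genotype, the 5 largest differences in mean FPKM in each direction, up to 8 called members per list and members that did not pass, the 4 largest per class of position and the genes at the filter. Isg15, Runx3, Fasl, Foxp3, Il17f, Itga6 and the genes named only for a promoter or a span were added after their values were seen. Some list members enter the counts and are not reported here by name. Alternatives changed the pseudocount, filter, libraries fitted, normalization, trend and replicate block, and left out each library.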

Additional observations from a re-analysis of the deposited data

How the results depend on the processing

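With 1 library of STAT6-/- or T-bet-/- cells left out, the lone library being assumed to vary like the other genotypes, 712 to 836 genes were higher and 749 to 869 lower; with any of the 8 left out, the ranges were 712 to 1403 and 749 to 1686. The alternatives that kept all libraries of the comparison gave 1085 to 1538 higher and 1206 to 1860 lower genes. Of the 193 called genes named by rule, 175 were tested with a filter at 5 FPKM and passed there, and the other alternatives tested all 193. None changed direction where it was tested. Ifng (6.60 to 6.76), Tbx21 (5.22 to 5.93), Il10 (2.42 to 2.57), Gzmb (2.97 to 3.08), Il5 (-3.52 to -3.10) and Stat6 (-1.59 to -1.47) passed under every one. With 1 library of the comparison left out, 32 to 36 of the 193 no longer passed; the other alternatives that tested all 193 lost at most 6. Srgn became 0 under quantile normalization, which cannot show a difference in a gene that keeps its rank.

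Replicates 1 and 2 share only a number across genotypes. The deviations of same-numbered libraries from their genotype means correlated at 0.091. With the replicate block, 1218 genes were higher and 1442 lower, and 5 of the 193 no longer passed, Snord57 among them.

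With 2 libraries per genotype a difference that did not pass is not shown to be absent, and genes near 1 FPKM rest on few fragments.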
